A study of Mus musculus with 8 samples.

Results

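The left ventricle of mdx mice was compared with that of wild-type (WT) mice across all measured genes and, within genes, across their transcripts. The comparison used 5 of the 8 libraries of the series, 2 of genotype WT and 3 of genotype mdx, and was taken from the genotype labels of the samples. The other 3 libraries, of genotype mdx sln +/-, entered the model to estimate the spread between libraries and a further term given below. They also counted in the filter on low values and in the mean level of each gene. All mice were 6 months old and untreated as far as the labels say, and all were of a C57 background whose substrain is not given. The labels name no littermates, no pooling and no animal for a library, so the p-values below reflect only how far these libraries differed among themselves, which may be technical. A whole ventricle holds several cell types, and in such bulk RNA fewer cells of a type and less RNA per cell cannot be told apart.

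The mdx mouse carries a point mutation in Dmd that stops production of dystrophin, a long cytoskeletal protein. Dystrophin links actin inside the muscle cell to a membrane complex and through it to the extracellular matrix. Without it the membrane of skeletal and cardiac myocytes tears under load and lets calcium in, and the heart of this strain slowly develops inflammation, fibrosis and cardiomyopathy with age. Many genes also give several transcripts, which differ in start site, splicing or end and can code for different proteins, so a gene can change in the make-up of its RNA without a change in its total.

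Abundances were given for 33027 transcripts, which belong to 14578 genes. A gene was tested where 2 or more libraries reached a linear value of 1, which left 13783 genes. All gene levels and changes below are log2(value + 1), a scale that understates changes of low genes. Errors after ± are limma's standard errors, or SDs where marked. The prepared values no longer held a contrast of mdx 2 and mdx sln +/- 2 with the other mdx libraries of both genotypes. The model therefore included that contrast and had 4 residual degrees of freedom. The deviations of mdx 2 and mdx sln +/- 2 from their group means correlated at -0.996. The level of mdx 2 is thus not a fully free value, and a small spread among the mdx libraries says less about how well they repeat. One control library stood apart from its partner in Y-linked RNA: Eif2s3y was at 6.11 in WT 1 and 0.92 in WT 2, against 5.91, 4.01 and 5.79 in mdx 1, 2 and 3. The gene calls below rested more on WT 2 than on any other library. Counts without it are given for each of the 23 lists of signalling, metabolism, RNA processing and cell structure. They are not given for cell type markers or for groups of genes by symbol.

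In the mdx ventricle, antigen-presenting H2 genes, the natriuretic peptide gene Nppb, the slow myosin gene Myh7 and the gap junction gene Gja1 were higher. Dmd, the mitochondrial genes Ucp3 and Ppargc1a, the clock genes Dbp and Nr1d2 and the metallothionein genes were lower. The calls of Nppb, Myh7, H2-K1, H2-D1 and the metallothionein genes Mt1 and Mt2 were each lost with at least 1 library left out. In limma, 2080 of the 13783 genes (15.1%) passed a Benjamini-Hochberg adjusted p of 0.05. Of these 1123 were higher in mdx (8.15% of the genes tested) and 957 lower (6.94%). Many changes were small: 984 of the 2080 (47.3%) changed under 1.5-fold, and 338 genes (2.45% of those tested) changed over 2-fold, 175 of them higher and 163 lower. The WT and mdx libraries did not overlap in 7081 genes (51.4%), which included all 2080. Without WT 2 the number of called genes was 638, and 568 of these were among the 2080. Without mdx 1 it was 1008, and 454 genes (3.29%), 198 higher and 256 lower, were called with any 1 of the 5 libraries left out. With median-ratio scaling, which shifted the median change by -0.017, 1016 genes were higher and 1077 lower, and without WT 2 it was 313 and 325, so which side was larger depended on these choices.

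**Figure D1:**
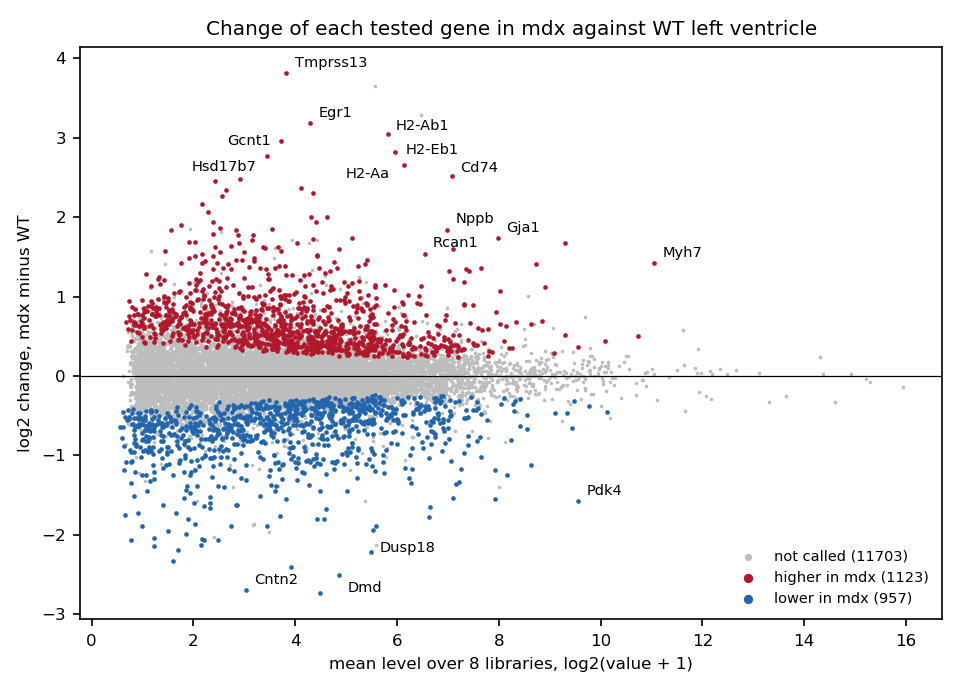
Log2 change of each of the 13783 tested genes in mdx against WT (vertical axis) against its mean log2 level over 8 libraries (horizontal axis). Red points are the 1123 genes called higher, blue points the 957 called lower and grey points those not called. Changes over 2-fold occurred at low and at high levels, with Tmprss13 at 3.81 and Cntn2 at -2.70 among the named genes.

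Dmd, the mutated gene on chromosome X (82948870 to 85206141, plus strand; all positions are GRCm38/mm10 from GENCODE M21, counted from 1), was checked first. WT 1 and WT 2 had levels of 6.60 and 6.98, and mdx 1, 2 and 3 had 4.30, 4.32 and 4.22. The mdx libraries lay close together and well under both WT libraries, a fall of 2.51 ± 0.12 (limma, adjusted p = 0.000227).

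The largest rise among called genes with a mean level of at least 3 was that of Tmprss13, a membrane-bound serine protease (chromosome 9, 45319100 to 45347581). It was at 1.03 and 1.12 in the WT libraries and 5.05, 4.91 and 4.71 in the mdx libraries. That is a rise of 3.81 ± 0.11, or 14.1-fold (limma, adjusted p = 2.79e-05), and the spread within each group was small beside it. Gcnt1, a Golgi enzyme that branches O-linked glycans (chromosome 19, 17326141 to 17372844), went from 1.33 and 1.41 to 4.41, 4.12 and 4.45. Hsd17b7, an enzyme of cholesterol synthesis (chromosome 1, 169949535 to 169969241), went from 1.51 and 1.13 to 3.97, 4.08 and 4.21. These genes rose by 2.96 ± 0.16 and 2.77 ± 0.16 (limma, adjusted p = 0.000251 and 0.000358), again with every mdx library far above both WT libraries. Lgr6, a receptor for R-spondins, rose by 2.37 ± 0.19, Aplnr, the apelin receptor, by 2.00 ± 0.29 and the metalloprotease gene Adam19 by 2.00 ± 0.27. Tmprss13, Gcnt1, Hsd17b7, Lgr6, Aplnr and Adam19 were called with any 1 of the 5 libraries left out.

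Another set of rises was uneven across the mdx libraries. Egr1, an immediate early transcription factor on chromosome 18, was at 2.50 and 1.34 in WT and 6.25, 5.01 and 4.03 in mdx 1, 2 and 3. It rose by 3.18 ± 0.65 (limma, adjusted p = 0.0215), and the mdx libraries spanned over 2 log2 units. The class II antigen-presenting genes H2-Ab1, H2-Eb1 and H2-Aa, and Cd74, which chaperones class II molecules, were highest in mdx 1 as well. H2-Ab1 was at 3.61 and 3.6 in WT and at 7.37, 6.28 and 6.31 in mdx, and Cd74 at 5.22 and 5.27 in WT and at 8.42, 7.41 and 7.46 in mdx. These 4 genes rose by 2.52 to 3.05 (adjusted p from 0.00476 to 0.00664). Mpeg1, a pore-forming protein of macrophages, was also highest in mdx 1, at 5.45 against 4.87 and 4.40 in mdx 2 and 3 and 3.04 and 2.91 in WT. Of 13 macrophage markers tested, 12 had a higher mean in mdx and 4 passed (Adgre1, Ccr2, Cx3cr1 and Lyz2), against 8.15% of all genes called higher. Their summed log2 level was 8.02 to 8.07 in WT and 8.36 to 8.70 in mdx, and their part in these rises was not tested.

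Among falls, Cntn2, an adhesion molecule enriched in the ventricular conduction system (chromosome 1, 132509427 to 132543256), went from 4.37 and 5.33 in WT to 1.66, 2.51 and 2.31 in mdx. It fell by 2.70 ± 0.39 (limma, adjusted p = 0.00802), with no mdx library within 1 log2 unit of WT. Dusp18, a dual-specificity phosphatase (chromosome 11, 3895240 to 3901296), had close values within each group. Its values were 7.02 and 7.04 in WT and 4.79, 4.70 and 4.95 in mdx, a fall of 2.22 ± 0.10 (adjusted p = 0.000223). Scn4b, a sodium channel beta subunit, fell by 1.89 ± 0.28, and its WT libraries, at 5.45 and 4.47, differed more from each other than the mdx libraries did, at 3.00, 2.94 and 3.29. Of 5 conduction system markers tested, Cntn2, Etv1 and Tbx3 fell, against 6.94% of all genes called lower. The summed log2 level of the 5 was 5.68 to 6.32 in WT and 4.65 to 4.96 in mdx, and their part in the fall of Scn4b was not tested.

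Ucp3, a carrier of the inner mitochondrial membrane, was at 6.76 and 7.10 in WT and 4.91, 4.86 and 5.36 in mdx. Ppargc1a, a coactivator of mitochondrial genes, was at 7.41 and 8.17 in WT and 6.17, 5.92 and 6.30 in mdx. They fell by 1.89 ± 0.19 and 1.65 ± 0.24 (limma, adjusted p = 0.00314 and 0.00802). Pdk4, a kinase that inactivates pyruvate dehydrogenase, and Pdp2, a phosphatase that reactivates it, were both lower, by 1.57 ± 0.41 and 1.68 ± 0.19. The metallothionein genes Mt1 and Mt2, which bind zinc and copper, fell by 1.54 ± 0.28 and 1.80 ± 0.41. The clock genes Dbp and Nr1d2 fell by 1.94 ± 0.20 and 1.29 ± 0.08. Fam214a fell by 1.81 ± 0.21, Ndrg4 by 1.77 ± 0.31 and Spock2, a proteoglycan, by 1.76 ± 0.22.

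Among genes with a mean level of at least 6, the largest rises outside antigen presentation, leaving out predicted and antisense genes and pseudogenes, were those of Nppb, Gja1, Rcan1 and Myh7. Rcan1 is described with its transcripts below. Nppb, a natriuretic peptide released by strained myocytes, was at 6.24 and 5.41 in WT and 8.30, 7.33 and 7.37 in mdx. Gja1, the gap junction protein connexin 43, was at 6.74 and 6.57 in WT and 8.26, 8.67 and 8.23 in mdx. Myh7, the slow myosin heavy chain of the fetal mouse ventricle, was at 10.05 and 10.16 in WT and 12.02, 11.28 and 11.26 in mdx. They rose by 1.84 ± 0.39, 1.73 ± 0.22 and 1.42 ± 0.27 (limma, adjusted p = 0.0229, 0.00626 and 0.0175), and mdx 1 was the highest library for Nppb and Myh7 but not for Gja1. Myh6, the adult myosin heavy chain, did not pass, at 14.08 and 14.14 in WT and 14.25, 14.30 and 14.49 in mdx (0.24 ± 0.17, adjusted p = 0.38). Lbh, a transcription cofactor, rose by 1.41 ± 0.27 and the collagen Col3a1 by 1.36 ± 0.25. The class I genes H2-K1 and H2-D1 rose by 1.60 ± 0.37 and 1.34 ± 0.32.

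Among falls at these levels, Herpud1, a protein of endoplasmic reticulum degradation, was at 8.73 and 9.16 in WT and 7.29, 7.21 and 7.69 in mdx, a fall of 1.55 ± 0.21. Acta1, skeletal alpha-actin, fell by 1.34 ± 0.29 while Myh7 rose. Timp3, an inhibitor of matrix proteases, fell by 1.25 ± 0.31, Rhobtb1 by 1.35 ± 0.30 and Fry by 1.35 ± 0.17. Of the 40 genes chosen for their size of change, Dmd included, 25 were called with any 1 of the 5 libraries left out. Without WT 2, 14 lost their call (Egr1, Mt1, Mt2, Nppb, H2-K1, H2-D1, Rcan1, Myh7, Lbh, Col3a1, Pdk4, Rhobtb1, Acta1 and Timp3), and Ndrg4 lost it without WT 1. The near-identical members of the H2, metallothionein and actin families can share reads, as can genes that overlap others on either strand, among them Dmd, Myh7, Tmprss13 and Adam19, so how their reads were divided is uncertain.

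**Figure D2:**
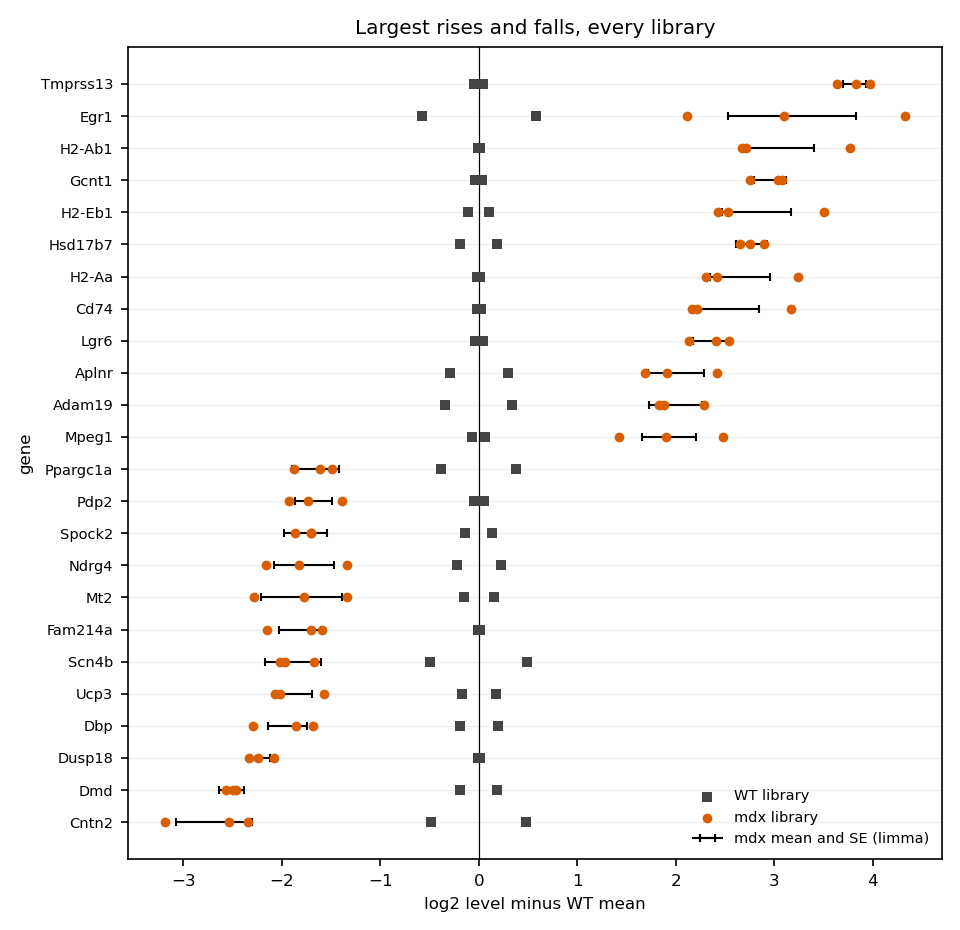
Log2 level of Dmd and the 23 other genes named for the largest changes at a mean level of at least 3, leaving out predicted and antisense genes and pseudogenes, in each WT library (squares) and mdx library (circles), given as the difference from the WT mean. Bars are the mdx mean with the standard error from limma. Tmprss13, Gcnt1 and Dusp18 had tight libraries, while the mdx libraries of Egr1 spanned 4.03 to 6.25 in log2 level.

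Beyond single genes, 23 lists covering signalling, metabolism, RNA processing and cell structure were read against the share of all genes called, 8.15% higher and 6.94% lower. The lists of Golgi glycosyltransferases, guidance molecules, the cytoskeleton and the Hippo pathway had the highest shares of risers. In other lists the share called either way was under the 15.1% of all genes. It was 10.3% for the p53 and the haem and iron lists, 14.3% for hypoxia and 14.7% for insulin. For the ketone body and peroxisome list it was 10%, for splicing factors 13.5% and for translation 8.33%. The Notch and BMP list and the Wnt list lay close to it, at 15.2% and 15.6%. Of 45 genes of the actin and microtubule cytoskeleton, 10 rose and 0 fell, with a median change of 0.26. Tuba1b, an alpha-tubulin, went from 6.58 and 6.83 in WT to 7.83, 7.60 and 7.39 in mdx, a rise of 0.90 ± 0.14. Stmn1, which destabilises microtubules, rose by 0.91 ± 0.10 and Actb, cytoplasmic beta-actin, by 0.89 ± 0.17. Coro1a, an actin-binding protein of leukocytes, rose by 1.46 ± 0.25, and Actg1, Tmsb4x, Arpc2, Tubb2a, Tubb6 and Map1b rose by 0.24 to 0.90. Without WT 2 the count was 4 of 45, with a median of 0.27.

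Of 41 semaphorin, ephrin and Slit guidance genes, which steer axons and also blood vessels, 10 rose and 0 fell, with a median of 0.26. The neuropilins Nrp1 and Nrp2, receptors shared by semaphorins and vascular growth factors, rose by 1.02 ± 0.19 and 1.07 ± 0.24. Nrp1 was at 5.73 and 5.17 in WT and 6.42, 6.62 and 6.36 in mdx. The ephrin receptor Epha4 was at 3.75 and 3.45 in WT and 4.71, 4.82 and 5.25 in mdx, a rise of 1.33 ± 0.22. The plexins Plxna1, Plxnb2 and Plxnd1, which signal for semaphorins, rose by 0.52 ± 0.07, 0.38 ± 0.06 and 0.91 ± 0.18. Ephb1, Sema3g, Sema4c and Ntn1 made up the rest. Without WT 2 only 1 of the 41 was called, with a median of 0.19, and without mdx 1 it was 5.

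Of 36 Golgi glycosyltransferases, 9 rose and 1 fell, with a median of 0.15. After Gcnt1, the largest rises were those of Mgat5 and Mgat3, which act on N-glycans. Mgat5 went from 3.44 and 3.20 to 4.63, 4.75 and 4.39, a rise of 1.27 ± 0.15 (limma, adjusted p = 0.0052), and Mgat3 rose by 1.12 ± 0.18. Mgat1 and Mgat4b, St6galnac4, B4galt5, B4galt6 and Galnt10 rose by 0.32 to 0.70, and C1galt1, which starts the O-glycan core that Gcnt1 branches, fell by 0.50 ± 0.14. Without WT 2 the counts were 3 and 0.

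Of 27 Hippo pathway genes 6 rose and 1 fell: Yap1, a transcription coactivator held back by the pathway, rose by 0.37 ± 0.09, and its DNA-binding partner Tead1 fell by 0.49 ± 0.08. Amot rose by 1.12 ± 0.18, Cyr61, a target of YAP, by 1.41 ± 0.31, and the list's median was 0.01. Without WT 2, 1 rose and 0 fell. Of 33 Notch and BMP genes 0 rose and 5 fell: the ligands Bmp4 and Bmp6 by 0.82 ± 0.15 and 0.78 ± 0.15, the receptor Bmpr2 by 0.42 ± 0.09 and the inhibitory Smad6 and Smad7 by 0.57 ± 0.11 and 0.61 ± 0.14. The list did not hold the receptor Notch3, which was counted with the pericyte markers and rose by 0.57 ± 0.15 (adjusted p = 0.0425). Bmp6 was at 5.07 and 4.93 in WT and 4.11, 4.09 and 4.46 in mdx, and without WT 2 only 1 of the 33 was called. Of 32 Wnt genes 1 rose and 4 fell, among them Dixdc1, a cytoplasmic Wnt pathway protein, at 3.22 and 3.41 in WT and 0.97, 1.05 and 0.91 in mdx. Dixdc1 fell by 2.34 ± 0.12 (limma, adjusted p = 0.000247), the largest change of any member of the 23 lists after the rise of Gcnt1, and Wls, which carries Wnt ligands to the cell surface, fell by 0.68 ± 0.08. The Wnt counts without WT 2 were 1 and 2.

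Of 34 insulin, mTOR and FoxO genes 1 rose and 4 fell, with a median of -0.16. Pik3r1, a regulatory subunit of PI3-kinase, fell by 0.95 ± 0.21, Foxo1 by 0.70 ± 0.11, Deptor by 0.70 ± 0.16 and Mtor by 0.31 ± 0.08, and Igf2r rose by 0.34 ± 0.08. Of 23 Toll-like receptor, NF-kB and inflammasome genes 4 rose and 1 fell: the inflammasome adaptor Pycard rose by 1.15 ± 0.14 and the NF-kB inhibitor gene Nfkbie by 0.75 ± 0.19. Of 27 cytokine receptor and JAK-STAT genes 4 rose and 2 fell, in opposite directions within a family: Stat6 rose by 0.25 ± 0.06, and Stat3 fell by 0.51 ± 0.12. The receptor Il13ra1 rose by 0.70 ± 0.10 and Lifr, the receptor for leukaemia inhibitory factor, fell by 1.02 ± 0.19. Of 33 MAP kinase genes 4 rose and 2 fell, with Map2k2 up by 0.41 ± 0.08, a call that was lost without WT 2 and without mdx 1. Of 29 genes of p53 and apoptosis 3 rose and 0 fell, among them Trp53 by 0.50 ± 0.11 and Bak1 by 0.94 ± 0.17. Of 21 hypoxia genes 2 rose and 1 fell: Egln3, an oxygen-sensing prolyl hydroxylase, went from 5.62 and 5.70 to 6.69, 6.76 and 6.93, and Vegfa rose by 0.31 ± 0.08 while Hif1a fell by 0.35 ± 0.09. Without WT 2 the counts higher and lower were 0 and 1 for the insulin list, 1 and 1 for the Toll-like receptor list, 1 and 0 for the JAK-STAT list, 0 and 1 for the MAP kinases, and 1 and 0 for the p53 and for the hypoxia list.

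Of 41 genes of triglyceride, phospholipid and sphingolipid metabolism 2 rose and 7 fell. The phosphatidate phosphatases moved apart: Lpin1, at 8.09 and 8.25 in WT and 7.33, 7.26 and 7.60 in mdx, fell by 0.77 ± 0.13, and Lpin2, at 2.89 and 2.96 in WT and 3.88, 3.71 and 4.10 in mdx, rose by 0.97 ± 0.15. Likewise the lipid droplet protein Plin5 fell by 0.55 ± 0.14 and Plin2 rose by 0.38 ± 0.09. Of 29 genes of serine, one-carbon and amino acid metabolism 1 rose and 5 fell, among them Aldh1l1, a folate enzyme, by 1.06 ± 0.10 and Got1, an aspartate aminotransferase, by 0.65 ± 0.09. Without WT 2 the counts of these lists were 1 higher and 0 lower, and 0 higher and 2 lower. Of 37 creatine, adenine nucleotide and NAD genes 4 rose and 6 fell: Gatm, which makes the precursor of creatine, rose by 1.36 ± 0.14 and the brain-type creatine kinase Ckb by 0.57 ± 0.09, and Ampd3, which deaminates AMP, fell by 0.91 ± 0.16. Of 30 ketone body and peroxisome genes 0 rose and 3 fell, with Ehhadh, a peroxisomal oxidation enzyme, down by 0.83 ± 0.10 and the peroxisomal transporter Abcd2 by 0.66 ± 0.14. Of 29 haem and iron genes 1 rose and 2 fell, the haem exporter Flvcr1 by 0.75 ± 0.13 and the haem-sensing repressor Bach1 by 0.43 ± 0.09. With WT 2 left out, the counts were 2 and 0 for the creatine list, 0 and 1 for the ketone body and peroxisome list and 0 and 0 for the haem and iron list.

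Of 29 vasoactive genes 1 rose and 5 fell. Npr3, the clearance receptor for natriuretic peptides, was at 5.05 and 4.84 in WT and 3.98, 3.93 and 3.83 in mdx, a fall of 1.03 ± 0.10. Npr1, the receptor that signals, rose by 0.42 ± 0.09, and Adora1, an adenosine receptor, fell by 1.16 ± 0.14. Without WT 2, 1 vasoactive gene rose and 3 fell. Npr3, Vwf and Lyve1 were also the 3 of 7 markers of endocardium and lymphatic vessels that fell, against 6.94% of all genes called lower. The summed log2 level of the 7 was 7.53 to 7.89 in WT and 6.89 to 7.08 in mdx. Of the others, Plvap differed by -0.43, Prox1 by 0.15, Flt4 by 0.07 and Pdpn by 0.30, and none passed. The part of endocardial and lymphatic cells in the vasoactive and BMP results was not tested.

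Of 52 splicing factors 1 rose and 6 fell, with a median of -0.07: Srsf5 by 0.91 ± 0.14, Sf3b1, a core part of the splicing machinery, by 0.71 ± 0.10 and Rbm38 by 0.58 ± 0.08. Without WT 2, 1 rose and 4 fell. Of 48 translation factors and tRNA synthetases 0 rose and 4 fell by 0.28 to 0.39, among them Eef2k and Eif1a. Of 46 chromatin modifiers 3 rose and 5 fell, Hdac1 by 0.65 ± 0.12 and Kdm6b by 0.59 ± 0.11, and without WT 2 none of the 46 was called. Of 19 lamina and LINC complex genes 2 rose and 2 fell, Syne2 up by 0.62 ± 0.08 and Emd, which codes for emerin, down by 0.41 ± 0.07. Of 39 lysosome genes 5 rose and 2 fell, Ctsf by 1.04 ± 0.13 and Atp6v1h by 0.66 ± 0.09. Leaving out WT 2 gave counts of 0 and 1 for the translation list, 2 and 0 for the lamina list and 1 and 2 for the lysosome list.

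**Figure D3:**
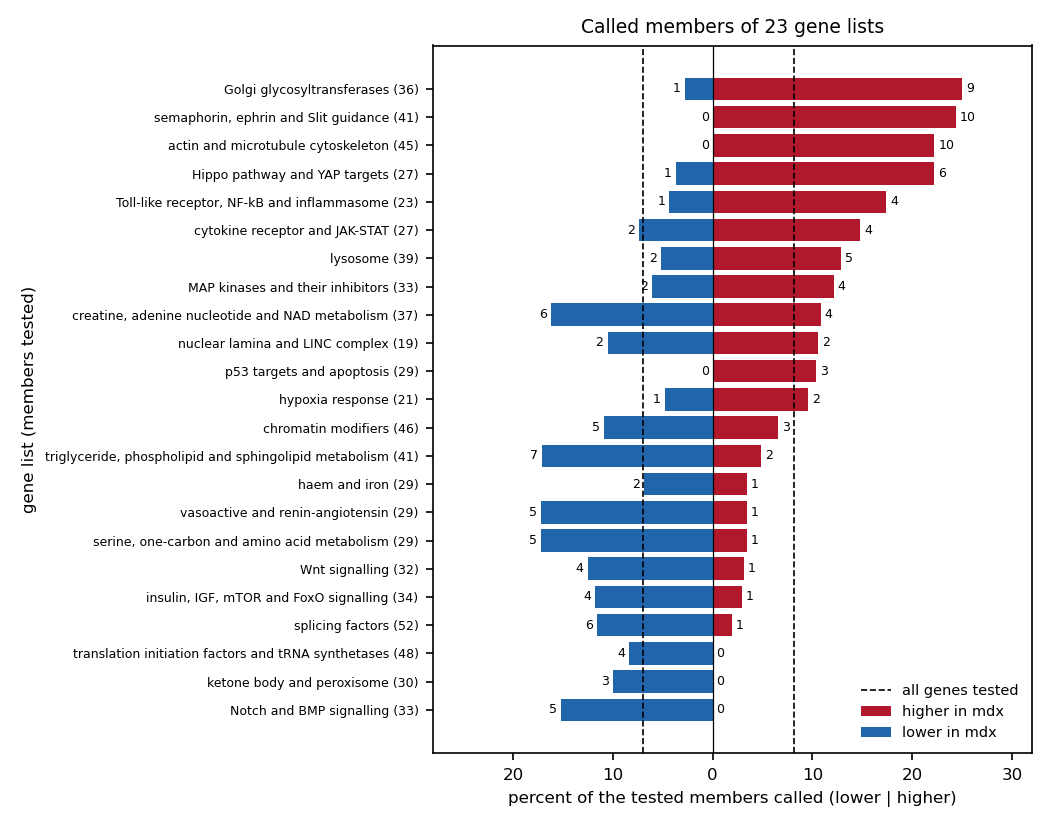
Percent of the tested members of each of 23 gene lists called higher (red, to the right) and lower (blue, to the left) in mdx, with the number of genes at each bar. Dashed lines mark the shares of all genes tested, 8.15% and 6.94%. The guidance, cytoskeleton and glycosyltransferase lists had 9 or 10 risers each, and the Notch and BMP list had 0.

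The 10 ventricular myocyte markers tested included 0 calls, with a median of 0.10 and a summed log2 level of 15.49 to 15.54 in WT and 15.64 to 15.73 in mdx. Among fibroblast markers 1 of 10 rose (Col1a1), among activated fibroblast markers 1 of 7 (Meox1), among endothelial markers 2 of 11 (Tek and Emcn) and among smooth muscle and pericyte markers 2 of 10 (Cspg4 and Notch3), and 0 fell in each. The shares called in these lists, 10% to 20%, lay on either side of the 15.1% of all genes called. Of all genes tested 8.15% were called higher and 6.94% lower, and counts in lists this short say little about the cells. Of 4 atrial markers 2 rose, Nppa and Gja5, while Stard10 differed by -0.83 and Nr2f2 by -0.05, and neither passed. Blood and platelet markers had 1 call of 7 (Pf4) and neutrophil and mast cell markers 1 of 4 (Kit). Of lymphocyte markers only Ighm and Ptprc were tested, and Ighm rose. None of the 4 Schwann cell and neuron markers, 4 Y-linked genes, 1 skeletal muscle marker or 1 mesothelial marker tested passed, and adipocyte markers were not analysed here.

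Read across the genome, called genes were spread over levels and chromosomes. In 5 equal bins of genes from the lowest to the highest mean level the share called was 13.6%, 14.9%, 15.3%, 15.3% and 16.2%. By chromosome it ran from 10.1% on chromosome 15 to 22.2% on chromosome 19, leaving out Y, where 0 of 6 genes were called. Among 91 groups of at least 15 genes whose symbols share their first letters, the collagens had 10 of 27 higher, 1 lower and a median of 0.47. Genes named H2- had 11 of 18 higher and 1 lower. Of 16 unconventional and other myosins named Myo, 5 rose (Myo1e, Myo1f, Myo7a, Myo9b and Myo18a) and 0 fell, and of 17 Kctd genes 4 rose and 0 fell. Of 303 zinc finger genes named Zfp, 9 rose and 25 fell. None of the 25 Cox, 31 Vps, 20 Mettl, 18 Zdhhc, 16 Pex or 16 Cyp genes passed.

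Of 517 long noncoding genes tested, 27 rose and 81 fell, with a median of -0.11 against 0.02 for 11916 protein-coding genes, of which 1027 rose and 835 fell. Without WT 2 the counts were 10 and 40, and among the few with a mean value of at least 10 they were 5 and 6 of 49. By annotated type, 14 of 179 lincRNA genes rose and 27 fell, 6 of 154 antisense genes rose and 25 fell, and 0 of 20 genes at bidirectional promoters rose and 7 fell. Atcayos, an antisense gene on chromosome 10, had close values within each group, going from 6.60 and 6.38 in WT to 3.76, 3.77 and 3.73 in mdx, a fall of 2.73 ± 0.09 (limma, adjusted p = 2.79e-05). The lincRNA gene Gm26825 went the other way, from 8.25 and 7.98 to 9.93, 9.63 and 9.80. Gm13054, annotated antisense to Nppa, rose by 1.07 ± 0.21 beside the rise of Nppa by 1.12 ± 0.27, and reads of the pair cannot be told apart without strand, which the sources used here do not give.

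**Figure D4:**
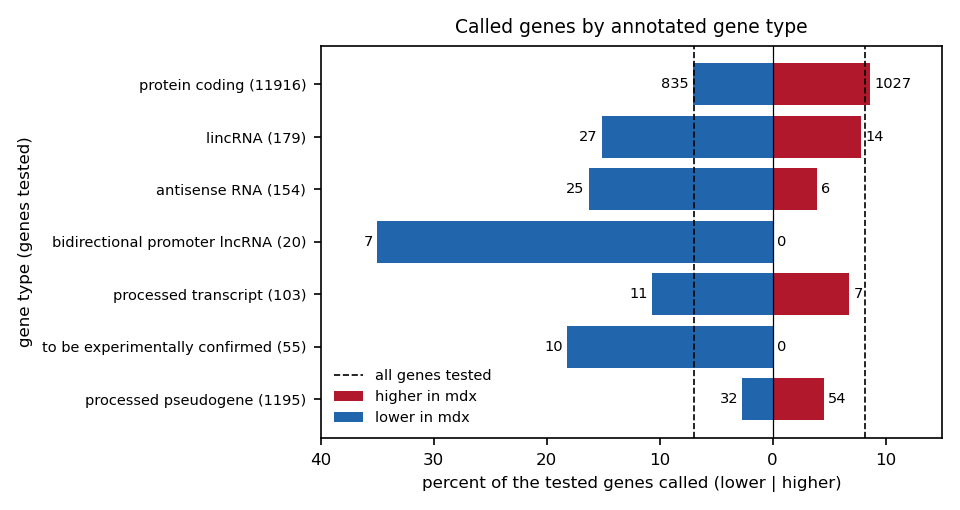
Percent of the tested genes of each annotated type called higher (red) and lower (blue) in mdx, with the number of genes at each bar and dashed lines at the shares of all genes tested. The lincRNA, antisense and bidirectional promoter genes had more fallers than risers (27, 25 and 7 against 14, 6 and 0), unlike the protein-coding genes.

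Once predicted, Rik, antisense and pseudogene symbols were left out, called genes of the same direction lay next to each other in 8 runs of at least 4 tested genes. The widest spanned 4477 kb on chromosome 1 (Atp6v1h to Rrs1, lower) and 905 kb on chromosome 10 (Nedd1 to Snrpf, higher). The run with the most genes held 9 within 197 kb of the class II region of chromosome 17 (34119541 to 34316674): H2-DMa, H2-DMb1, Psmb9, Tap1, Psmb8, Tap2, H2-Ab1, H2-Aa and H2-Eb1. They code for class II chains and their peptide loaders, for subunits of the immunoproteasome and for the peptide transporter of class I, and they rose by 0.96 to 3.05. Without WT 2, H2-DMb1, Psmb9, Tap1, Psmb8 and Tap2 lost the call. The interferon-induced GTPase genes Gbp5, Gbp7, Gbp3 and Gbp2 on chromosome 3 (142493978 to 142638008) rose by 0.80 to 1.21, and as close paralogs they can share reads. On chromosome 4 (147909753 to 148038821) Nppb and Nppa rose with their neighbours Plod1, by 0.35 ± 0.08, and Clcn6, by 0.34 ± 0.09. All 4 lost the call without WT 2, and Clcn6 was called in 6 of 21 settings, the reported one included. On chromosome 1 (134983301 to 135284084) Lgr6 rose with Ptpn7, Arl8a and Rnpep, by 0.32 to 2.37. On chromosome 9 (123366927 to 123851899) Lars2, Limd1, Sacm1l, Lztfl1 and Fyco1 fell by 0.49 to 0.94, with Limd1 at 6.5 and 6.49 in WT and 5.57, 5.5 and 5.6 in mdx. Nxt2, Acsl4, Tmem164 and Ammecr1 on chromosome X fell by 0.46 to 0.63. Without WT 2, calls were also lost for Gbp7, Arl8a, Rnpep, Fyco1 and all 4 genes of the run on chromosome X. The members of these runs were chosen after their values were seen.

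At the level of transcripts, 2407 of 29021 tested (8.29%) were called, 1227 higher and 1180 lower, and without WT 2 it was 517. Whether the transcripts of a gene changed relative to each other was tested in 6836 genes with at least 2 tested transcripts. diffSplice of limma called 691 (10.1%), and a test on the logit of each transcript's share of its gene called 44 (0.644%), of which 43 were called by both. A switch was defined as a called gene in which the share of 1 transcript was higher in mdx by at least 10 percentage points and that of another lower by at least 10, both without overlap between the WT and mdx libraries. There were 257 switches (3.76% of genes tested), 75 of them over at least 20 points on both sides, and 27 (0.395%) were called by both tests. Usage calls and switches rested most on mdx 3, without which they numbered 389 and 149, and without WT 2 they numbered 421 and 202. These 27 are given first, since diffSplice was the more permissive test.

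The total level was called in a minority of the switching genes and in most of those that both tests called: 67 of the 257 (26.1%) and 16 of the 27 were, against 15.1% of all genes. The transcripts that traded places had different first exons in 127 of the 257 (49.4%), compared with 44.2% for the 2 most abundant transcripts of each gene tested, and different last exons in 32 (12.5%, against 957 of 6836 genes). Among the 27 the first exons differed in 14 and the last exons in 10. Both transcripts coded for protein but differently in 147 of the 257, and in 51 they held the same coding sequence. Of the 27 switches, 21 met the definition with any 1 of the 5 libraries left out, and of the 257 it was 51.

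Rcan1 switched its first exon and rose in total. It codes for regulators of calcineurin, the calcium-activated phosphatase that switches on NFAT transcription factors (chromosome 16, 92391953 to 92470867, minus strand). Its transcript Rcan1-201 starts 66.1 kb downstream of Rcan1-202, so their proteins differ at the start. The coding parts of these first exons, read 5' to 3' with the start codon in capitals, show how the proteins part:
Rcan1-201, chr16:92399896-92399982, minus strand: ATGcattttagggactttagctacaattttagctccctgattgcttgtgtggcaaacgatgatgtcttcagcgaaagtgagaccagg
Rcan1-202, chr16:92465833-92466078, minus strand: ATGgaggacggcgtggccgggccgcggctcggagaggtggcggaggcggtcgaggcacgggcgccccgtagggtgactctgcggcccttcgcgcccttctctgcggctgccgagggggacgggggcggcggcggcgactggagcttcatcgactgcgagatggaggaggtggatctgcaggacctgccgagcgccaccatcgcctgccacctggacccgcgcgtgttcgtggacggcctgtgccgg
The short first exon gave 87 coding bases and the long one 246, so the whole coding sequences were 594 and 753 bases. Rcan1-201 held 49.2% and 51.5% of the gene's abundance in WT and 77.4%, 72.3% and 75.8% in mdx. Its linear abundance was 24.4 and 21.1 in WT and 137, 75.9 and 95.6 in mdx, a change of 2.09 ± 0.28 (limma, adjusted p = 0.0101). Rcan1-202 was at 25.2 and 19.8 in WT and 40.1, 29.0 and 30.5 in mdx, a change of 0.54 ± 0.18 that did not pass (adjusted p = 0.111). The gene as a whole rose by 1.54 ± 0.26 (adjusted p = 0.0126), with levels of 5.66 and 5.39 in WT and 7.48, 6.73 and 6.99 in mdx. The usage test gave adjusted p = 0.0222 with diffSplice and 0.0379 with the logit test. The diffSplice call was lost without WT 1, without WT 2 (adjusted p = 0.0816), without mdx 3 and in the r1 columns alone.

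The 250 bases before each start (RefSeq, GRCm38.p6) were searched for GGAAA, the core of the NFAT motif, on both strands, where the other strand reads TTTCC. The matches are in capitals:
before Rcan1-201, chr16:92400079-92400328, minus strand: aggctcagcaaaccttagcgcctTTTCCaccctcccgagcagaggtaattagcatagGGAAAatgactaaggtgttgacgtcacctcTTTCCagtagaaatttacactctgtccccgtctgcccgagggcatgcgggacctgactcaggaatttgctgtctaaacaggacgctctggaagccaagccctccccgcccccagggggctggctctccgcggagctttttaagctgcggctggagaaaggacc
before Rcan1-202, chr16:92466170-92466419, minus strand: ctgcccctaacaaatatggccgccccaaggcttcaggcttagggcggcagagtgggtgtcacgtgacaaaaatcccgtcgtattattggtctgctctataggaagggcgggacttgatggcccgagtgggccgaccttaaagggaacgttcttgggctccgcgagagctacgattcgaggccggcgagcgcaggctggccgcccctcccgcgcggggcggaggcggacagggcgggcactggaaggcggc
The window before Rcan1-201 held 3 matches and that before Rcan1-202 held 0. At least 1 match was found in 55.6% of 32851 windows of this length and at least 3 in 6.39%. A match is a string of letters and not a measured binding site.

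Esrrb codes for an orphan nuclear receptor of the oestrogen-related family, which acts on mitochondrial and contractile genes in the heart (chromosome 12, 86361117 to 86521628, plus strand). Its total level did not pass, at 4.99 and 5.11 in WT and 4.99, 4.84 and 4.81 in mdx. Esrrb-204 held 67.2% and 71.9% of the abundance in WT and 43.1%, 43.03% and 47.5% in mdx, while Esrrb-203, which starts 60.5 kb further downstream, went from 31.3% and 25.7% to 56.1%, 56.4% and 51.6%. Esrrb-204 was the more abundant of the pair in both WT libraries, and Esrrb-203 in all mdx libraries. Esrrb-203 changed by 0.71 ± 0.12 and Esrrb-204 by -0.77 ± 0.11 (adjusted p = 0.0174 and 0.0123), and the usage call held with any 1 library left out (largest adjusted p 0.00892). The coding part of the first exon of Esrrb-203, 50 bases with the start codon in capitals, is where its coding sequence of 1362 bases begins, while that of Esrrb-204 has 1314:
Esrrb-203, chr12:86421915-86421964, plus strand: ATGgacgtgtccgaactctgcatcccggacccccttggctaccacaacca

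Eps8, an actin-capping and bundling protein, switched between start sites 78.3 kb apart with the same coding sequence of 2463 bases. Eps8-202 held 72.9% and 69.5% in WT and 32.7%, 37.4% and 30.05% in mdx, and Eps8-203 held 18.5% and 13.4% in WT and 56.7%, 51.0% and 48.8% in mdx. The gene's total differed by 0.03 ± 0.12 (limma, adjusted p = 0.877). Srgn, a proteoglycan of secretory granules, was similar: Srgn-205 went from 36.5% and 41.1% to 63.4%, 65.0% and 60.8% and Srgn-201 from 53.3% and 46.6% to 22.1%, 22.2% and 24.5%, with the same coding sequence and starts 0.183 kb apart. Tmem69 shifted its last exon, with Tmem69-201 at 40.7% and 43.7% in WT and 7.28%, 7.47% and 10.8% in mdx.

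Stmn1 and Gbp9 rose in total through 1 of their transcripts. Stmn1-202 went from 2.49 and 2.42 in linear abundance to 8.89, 7.45 and 6.66 (1.32 ± 0.14, adjusted p = 0.00522), while Stmn1-201 was at 2.72 and 2.82 in WT and 3.01, 2.89 and 3.18 in mdx. Gbp9-201, the protein-coding form, went from 14.3% and 30.9% to 61.1%, 66.5% and 73.1%, and the retained-intron form Gbp9-203 from 54.7% and 39.8% to 20.7%, 16.3% and 12.1%. For Stmn1-202 the change in share was 40.8 points in the r1 columns and 8.31 in the r2 columns, and usage was not called in the r2 columns alone.

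Hspa8, the constitutive HSP70 chaperone, had the largest lesser share change of the 257 switches, and it differed between the columns. Hspa8-202, the coding form, held 94.4% and 93.2% in WT and 24.1%, 31.2% and 33.3% in mdx, and the noncoding Hspa8-209 held 3.32% and 3.94% in WT and 73.5%, 66.2% and 63.0% in mdx. The rise in share of Hspa8-209 was 88.6 points in the r1 columns and 15.6 in the r2 columns, and usage was not called in the r2 columns alone. The division of reads between these transcripts is therefore uncertain, and the gene's total did not pass (-0.32 ± 0.15, adjusted p = 0.196).

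Some switches called by both tests lay outside the naming rule and were chosen after their values were seen. Adgrf5, an adhesion receptor of endothelium, used Adgrf5-201 for 64.1% and 66.1% in WT and 37.1%, 31.98% and 36.1% in mdx, and Adgrf5-205, which starts 37.5 kb downstream and codes for 3429 in place of 4044 bases, for 23.5% and 20.5% and then 45.8%, 44.5% and 37.5%. Eno1, a glycolytic enzyme, rose in total by 0.82 ± 0.09, and Eno1-202 went from 25.4% and 23.7% to 54.7%, 51.6% and 46.8%. Smarcc1, a subunit of SWI/SNF chromatin remodellers, moved from Smarcc1-204 (39.7% and 35.1% in WT, 11.7%, 11.2% and 11.997% in mdx) to Smarcc1-201 (40% and 41.9% in WT, 62.7%, 60.4% and 60.1% in mdx). Rock2, a kinase of the actin cytoskeleton, had Rock2-203 at 16.3% and 19.4% in WT and 6.93%, 7.08% and 5.78% in mdx, and Rock2-201 made up the rest. The noncoding Atcayos fell most in Atcayos-203, from linear abundances of 43.2 and 39.2 to 3.45, 3.31 and 2.37.

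The naming rule also gave Scaf4, Wars2, Gnptg, Pakap, Lrrc8d, C2cd5 and the predicted gene Gm42641, which were called by diffSplice but not by the logit test. Their lesser share change was 24.2 to 26.5 points. In Wars2, a mitochondrial tRNA synthetase, Wars2-201 held 30.1% and 54.8% in WT, a gap nearly as wide as the mean change of 25.2 points, and 75.9%, 60.7% and 66.3% in mdx. In Pakap the coding Pakap-203 was at 29.7% and 38.6% in WT and 11.5%, 11.5% and 5.41% in mdx.

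**Figure D5:**
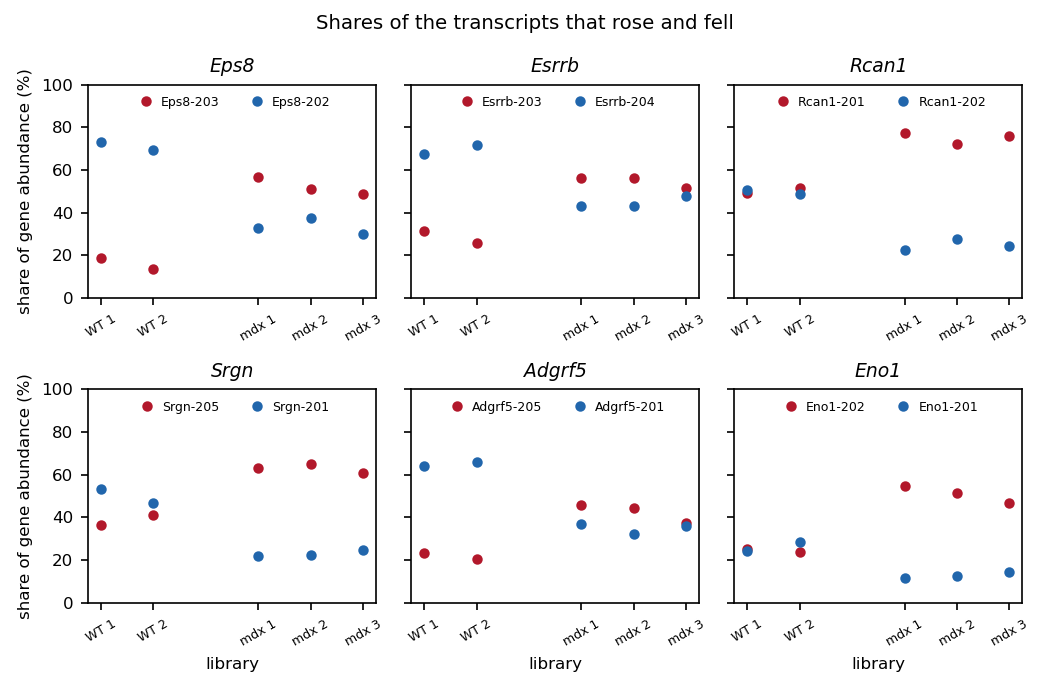
Share of the gene's abundance, in percent, held by the transcript that rose (red) and the transcript that fell (blue) in each WT and mdx library, for 6 genes whose switch was called by both tests. In Eps8, Esrrb and Adgrf5 the transcript with the larger share in WT had the smaller share in mdx, and in Rcan1 both held about equal shares in WT, 49.2% and 50.8% in WT 1.

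Summed over protein-coding genes, transcripts annotated with a retained intron held 3.83% and 3.69% of the abundance in WT 1 and WT 2 and 4.03%, 4.03% and 4.01% in mdx 1, 2 and 3. The mdx libraries lay close together above both WT libraries, with means of 4.02% ± 0.01 (SD, n = 3) and 3.76% ± 0.10 (SD, n = 2). Since mdx 2 was not fully free of the other libraries, the SD of the mdx group may be too small. This share was not tested: 3 libraries against 2 cannot give a p under 0.05 in an exact permutation test. Of 3318 retained-intron transcripts tested singly, 91 rose and 76 fell (5.03% called, against 8.29% of all transcripts tested). Transcripts marked for nonsense-mediated decay held 2.82% and 2.79% in WT and 2.73%, 2.75% and 2.77% in mdx, a gap smaller than that of the retained-intron share.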

How the data were processed

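RNA of 8 left ventricle libraries (2 WT, 3 mdx and 3 mdx sln +/-) was sequenced. The submitters' processing notes name STAR 2.6.1, the mm10 build, Partek and limma. Per the file headers, the table holds 16 deposited columns of log2 values per transcript, labelled r1 and r2 within each library. The lowest value is 3.07e-05 and the highest 16.2, from which the scale was taken to be log2 of a normalized abundance plus 1. Length scaling, strand and what r1 and r2 stand for are not given in the sources used here. Depth is unknown, and linear library sums ran from 780262 to 924253.

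The r1 and r2 values were averaged, made linear, summed by gene and returned to log2(value + 1). After the filter on low values, limma 3.58.1 (R 4.3.3) was fitted over all 8 libraries. The model held the group and a term for mdx 2 and mdx sln +/- 2, because the contrast of these with the other mdx and mdx sln +/- libraries was 0 in every transcript, to within 5.12e-05. The prior variance followed mean level, and p-values were adjusted by Benjamini-Hochberg (call under 0.05). Transcript usage was tested with diffSplice and Simes' method, or alternatively with limma on the logit of each share. Both were tested on simulated data, where diffSplice called more unchanged genes than the logit test. Transcript structure came from GENCODE M21 and windows before start sites from RefSeq (GRCm38.p6).

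The members, lists and tests were chosen with earlier results of these data known. The rule for named genes took Dmd, the 12 largest rises and falls at a mean level of 3 or more and the 10 largest at 6 or more (called, without overlap, of 1 direction in r1 and r2, no predicted symbols), 2 genes per list by adjusted p, and the 15 switches with the largest lesser share change. Other genes named were chosen after their values were seen. Alternatives were other models, filters, pseudocounts, scalings and columns, and leaving out each library. Sln was not analysed here, and some results are not reported here.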

Additional observations from a re-analysis of the deposited data

How the results depend on the processing

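Counts of called genes, transcripts, usage changes and switches moved by over 1.5 times under several alternatives, and the cause was not tested. With the group as the only term they were 3798, 5732, 1547 and 453, against 2080, 2407, 691 and 257. With a mean value of at least 10 they were 1229, 1113, 102 and 35, where fewer genes were tested. Without both libraries of low Y-linked RNA (WT 2 and mdx sln +/- 3), an alternative chosen after seeing the data, they were 154, 124, 131 and 69. Genes numbered 3708 with the Eif2s3y level in place of the term for mdx 2 and mdx sln +/- 2. Like the group-only fit, that fit lacked this term, so its count does not show an effect of the Eif2s3y level alone. The source names of mdx 1, mdx 2 and mdx sln +/- 1 and 2 carry an RNASeq tag. Those of both WT libraries, mdx 3 and mdx sln +/- 3 do not, so the tag partly follows genotype. What the tag stands for is not given. A model that held the tag in place of the term for mdx 2 and mdx sln +/- 2 called 1554 genes. In it, 7 of the 84 genes chosen by the naming rule lost their call. The untagged libraries alone leave 1 mdx library, so that fit cannot separate genotype from a single library. The r1 columns alone gave 1109 transcripts and 412 usage changes, and the r2 columns alone 832 transcripts, 362 usage changes and 154 switches. The logit test gave 44 usage changes and 27 switches, and a share change of at least 20 points 75 switches. Leaving out each library in turn gave 638 to 1808 genes, 517 to 1887 transcripts, 389 to 783 usage changes and 149 to 343 switches. The lowest were without WT 2 for genes and transcripts and without mdx 3 for usage and switches. Transcripts also fell to 1040 without mdx 1 and 1410 without mdx 3, and usage changes to 421 without WT 2. Of the 68 counts under alternatives, 38 stayed within 1.5 times. Of the values of the 84 genes and 15 switches that the naming rule chose, 1643 kept direction and call, 252 kept direction but lost the call, and 0 reversed. That 0 reversed was largely set by the choice and is no measure of stability. The WT and mdx libraries did not overlap in any called gene, nor in the shares of any switch. The switches and the genes chosen by size also had 1 direction in r1 and r2. Among genes chosen after their values were seen and not called, Eif2s3y ran from -0.88 to 4.31 and Eps8 from -0.08 to 0.10 with each library left out.

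WT and mdx share the replicate numbers 1 and 2, whose deviations correlated at 0.148 and 0.180, but no label says that a number pairs animals. In a further model a replicate block for the number took the place of the term for mdx 2 and mdx sln +/- 2. It gave 2397 called genes, 2590 transcripts, 668 usage changes and 238 switches. Depth is unknown, so what it limits could not be measured.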

Other observations

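Among genes with a mean level over 5 and a difference over 2 log2 units, 3 did not pass the test, and they were picked here after their values were seen. Fkbp5, a co-chaperone of the glucocorticoid receptor, was at 7.20 and 7.59 in WT and 5.40, 4.32 and 6.10 in mdx, a difference of -2.12 ± 0.76 (limma, adjusted p = 0.101). The groups did not overlap, and its mdx libraries lay far apart from each other. The other 2 differed within WT. Kcnj14, an inward rectifier potassium channel, was at 5.78 in WT 1 and 0.38 in WT 2 and at 7.64, 6.43 and 6.12 in mdx. The processed pseudogene Rps3a3 was at 1.46 in WT 1 and 6.46 in WT 2 and at 7.24, 7.30 and 7.20 in mdx, and as a copy of a ribosomal protein gene it can share reads with its parent.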
